A study of Saccharomyces cerevisiae with 19 samples.

Results

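The wild-type strain of a budding yeast (Saccharomyces cerevisiae) time course was compared between late and early stationary culture. The 6 arrays compared, of 19 in the series, were chosen by strain and time alone: the late window held the wild-type arrays of 96, 108 and 120 h, and the early window those of 36, 48 and 60 h. The labels call the strain wild type and name no parent strain. The other wild-type arrays were those of 12, 24, 72 and 84 h, and the 72 h and 84 h arrays are used below to place each change in time. The series also held 9 arrays of a sch9 mutant, labelled as lacking SCH9, a kinase gene of nutrient signalling. Its arrays of 96 and 108 h, and of 36, 48 and 60 h, are set against the wild type at the end. Both strains were grown overnight in SDC medium, diluted, and shaken at 30 °C without any other treatment. Each strain and time was read by 1 Affymetrix Yeast 2.0 array of total RNA, so the 3 times of a window stand in for replicates. Every p-value therefore measures a step between windows against the spread over times within them, and not against independent cultures. Precision is limited by the number of arrays.

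Yeast cells that have used up their glucose respire the ethanol they made, stop dividing and enter stationary phase. They then live on stored carbohydrate and lipid, keep up stress protection and turn over proteins and organelles through the proteasome and autophagy. In such a culture, chronological ageing is the loss of viability of non-dividing cells over days, and its pace depends on signalling through TOR, Sch9 and protein kinase A.

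The 60 h array stood apart from the other early arrays. Over 5449 genes its Pearson correlation was 0.978 with the 48 h array and 0.963 with the 36 h array, but 0.993 with 72 h, 0.991 with 96 h, 0.989 with 108 h and 0.986 with 120 h. The median SD of a gene was 0.0686 on the log2 scale over the late arrays and 0.166 over the early arrays. The early SD was the larger in 83.4% of genes. Counts are therefore given with and without it.

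Control probe sets also moved with the windows. In the deposited log2 values the probe set at the 3' end of 18S ribosomal RNA read 14.57, 14.55 and 14.64 at 96, 108 and 120 h, against 8.70, 8.62 and 10.54 at 36, 48 and 60 h. It was intermediate at 72 h (10.98) and 84 h (13.77). Other probe sets of ribosomal RNA varied widely. Late minus early was 2.59 for the middle and 0.56 for the 5' end of 18S, and 5.88 for another 18S probe set. The 3' and 5' ends of 25S differed by only 0.38 and 0.52. A score of RNA integrity, the mean 3' minus 5' signal of 10 pairs of control probe sets, averaged 1.33 late and 0.94 early. ACT1, SPT15 and SRB4 entered the score with 2 pairs each, so the pairs are not 10 separate transcripts. The windows did not overlap for the 3' probe set of 18S or for the score. Both differences (5.30 and 0.39 on the log2 scale) had an exact two-sided permutation p of 0.1, the smallest that 3 against 3 arrays allow. In the mutant the 3' probe set of 18S stayed between 6.97 and 7.68 over the same hours, as the plot of the control probe sets shows. The part of these shifts in the gene differences below was not tested beyond a fit with the score as a covariate. In that fit 0 genes passed, with 59 at an unadjusted limma p under 0.05. As the score did not overlap between the windows, that fit cannot separate the score from the window, here or in the lists below.

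**Figure D1:**
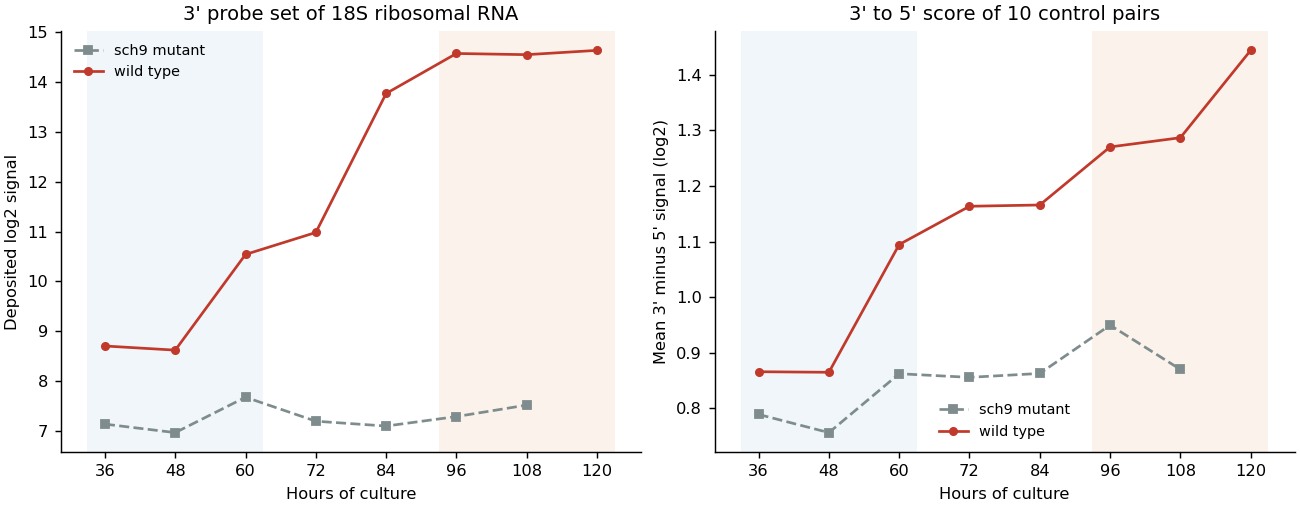
Deposited log2 signal of the 3' probe set of 18S ribosomal RNA (left) and the mean 3' minus 5' signal of 10 control pairs (right), by hours of culture, with 1 point per array. The early and late windows are shaded. In the wild type the signal of this 18S probe set reached 14.57 at 96 h, against 8.70 at 36 h. The mutant reached at most 7.68 on any array shown.

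Between the windows, 268 of 5449 genes differed at an adjusted p under 0.05 (limma with Benjamini-Hochberg adjustment over all genes), which is 4.92% of those tested. Of these, 92 genes were higher late (1.69%) and 176 were lower late (3.23%). Only 22 differed at least 2-fold, 8 upward and 14 downward, and the median size of the 268 differences was 0.60 on the log2 scale. The median difference over all genes was 0.03. Each array read RNA of a whole culture, so fewer cells that hold a transcript and less of it per cell cannot be told apart. All 268 had windows that did not overlap, a property shared by 42.2% of all genes (23.6% with the late window above and 18.6% with it below). The weakest gene to pass was PET127, with an adjusted p of 0.0495 in limma, and the next was VNX1, with 0.0501. Leaving out the 60 h array gave 2848 genes (52.3%), 1575 higher (28.9%) and 1273 lower (23.4%), and these included all 268. Leaving out any other single array gave between 0 and 2 genes, while all 268 kept their direction in each of these fits.

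The course between the windows was read from the arrays left out of each fit. Among the 1575 genes that were higher when 60 h was left out, the median gene had made 73.1% of its step from the 36 and 48 h mean to the late mean by 60 h, 72.3% by 72 h and 71.7% by 84 h. Among the 1273 lower genes the shares were 71.7% by 60 h, 71.8% by 72 h and 78.3% by 84 h. None of these 3 arrays entered that fit. The 92 higher genes had a median share of the step from the early to the late mean of 36.1% at 72 h and 67.0% at 84 h. For the 176 lower genes it was 55.9% at 72 h and 70.2% at 84 h. The 92 and 176 genes passed a test that counted 60 h as early, which favours genes that moved after 60 h. Their step also starts from a mean that includes 60 h. Their shares therefore cannot be set against those of the 1575 and 1273 genes.

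The largest rise belonged to SIP18, which encodes a hydrophilin known for desiccation tolerance. Its signal was 12.46, 12.71 and 12.99 at 96, 108 and 120 h, against 10.52, 10.34 and 10.80 at 36, 48 and 60 h. It climbed on each array after 48 h, through 11.08 at 72 h and 11.79 at 84 h. The difference was 2.17 ± 0.16 on the log2 scale (SE), or 4.51-fold, with an adjusted p of 0.00528, the lowest of all genes. Its paralog GRE1, another hydrophilin, read 11.28, 11.75 and 12.17 late and 10.09, 10.19 and 10.60 early (difference 1.44 ± 0.23, adjusted p = 0.0318). GRE1 moved later than SIP18, being still at 10.62 at 72 h and 10.58 at 84 h. NCA3, a SUN family gene linked to the expression of mitochondrial ATP synthase subunits, read 12.83, 12.98 and 13.12 late and 11.32, 11.73 and 12.00 early, a rise of 1.29.

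Short genes without a standard name were also among the largest rises. YDR524W-C read 9.05, 9.50 and 9.36 late and 7.65, 7.44 and 8.19 early, a rise of 1.54. YJL047C-A rose by 1.19 and YLR342W-A by 0.79. YOR072W-B (1.51) and YLR154C-H (1.01) are read by probe sets with sequence shared between genes and are uncertain. YLR154C-H also overlaps the ribosomal DNA in the annotation, and its values of 10.54, 10.73 and 10.95 late and 9.43, 9.52 and 10.23 early rose with the 18S control described above. Of the 92 higher genes 14.13% had no standard name, against 9.66% of the 176 lower genes and 9.16% of all genes.

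The other large rises were spread over several functions. JLP1, a dioxygenase that frees sulphur from sulphonates, read 9.74, 10.02 and 10.03 late and 8.62, 8.82 and 9.19 early (1.05 ± 0.16). ERG5, the sterol desaturase of a late step in ergosterol synthesis, read 10.58, 10.62 and 10.61 late and 9.35, 9.50 and 10.14 early (0.94 ± 0.19). The windows of both genes were separated, but the 60 h array lay nearest to the late window. The condensin subunit gene SMC2 rose by 0.88, THI4 of thiamine synthesis by 0.85, TYE7, an activator of glycolytic genes, by 0.84, the spindle protein gene STU1 by 0.81 and COG8 of Golgi transport by 0.78. Their adjusted p lay between 0.026 and 0.0455 in limma.

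**Figure D2:**
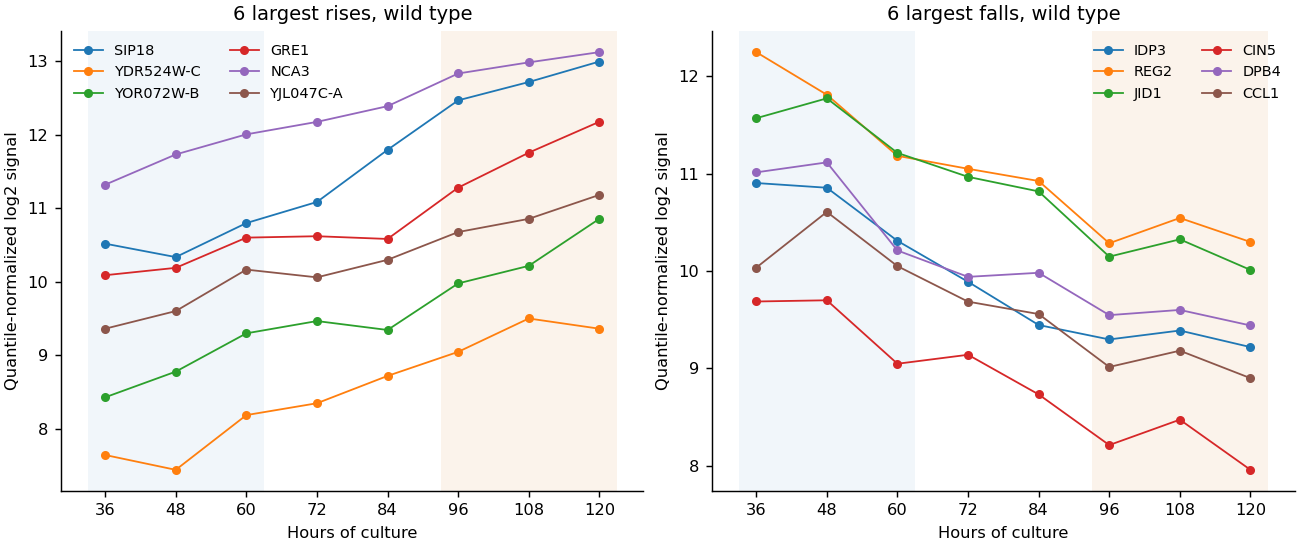
Quantile-normalized log2 signal of the 6 genes with the largest rise (left) and the 6 with the largest fall (right) among genes past the threshold, by hours of culture in the wild type, with 1 point per array and both windows shaded. SIP18 reached 12.99 at 120 h, against 10.52 at 36 h, and REG2 reached 10.30 at 120 h, against 12.25 at 36 h.

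The largest fall was in IDP3, the peroxisomal isocitrate dehydrogenase that supplies NADPH for the oxidation of unsaturated fatty acids. Its signal was 9.30, 9.39 and 9.22 late and 10.90, 10.86 and 10.31 early, a difference of -1.39 ± 0.16 (adjusted p = 0.021). It fell in steps, with 9.89 at 72 h and 9.45 at 84 h. REG2, a regulatory subunit of the protein phosphatase Glc7 in glucose signalling, read 10.29, 10.55 and 10.30 late and 12.25, 11.81 and 11.18 early (-1.37 ± 0.24). JID1, which encodes a protein with a J domain, read 10.15, 10.33 and 10.01 late and 11.57, 11.77 and 11.21 early (-1.36 ± 0.15). CIN5, a transcription factor of the salt and stress response, read 8.21, 8.47 and 7.96 late and 9.69, 9.70 and 9.05 early (-1.26 ± 0.20). In each of these genes the highest late array was below the lowest early array.

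The other large falls had varied roles. DPB4, a subunit shared by DNA polymerase epsilon and a chromatin remodelling complex, fell by 1.25, and CCL1, the cyclin of the kinase in transcription factor TFIIH, by 1.20. RGS2, which restrains glucose-induced cAMP signalling, fell by 1.16, as did CAB3 of coenzyme A synthesis. HIT1 of snoRNP assembly fell by 1.13, the splicing factor gene YJU2 by 1.10, DUG3 of glutathione breakdown by 1.01 and GIP2, a Glc7 subunit of glycogen metabolism, by 1.01. SLF1, an RNA-binding protein gene, and the zinc finger gene CUZ1 each fell by 1.00, and YDL129W, which has no standard name, by 1.06. HIT1, with 8.37, 8.54 and 8.42 late and 9.91, 9.93 and 8.89 early, had the highest adjusted p of these (0.0487).

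Genes are described below in 46 lists by function. Of the 268 genes, 95 belonged to a list and 173 to none. The lists do not hold every gene of a function, so each count covers listed genes only. Further genes of the same functions can be among the 173. Each count of passing members is to be read against 4.92% of all genes, 1.69% higher and 3.23% lower.

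Cytosolic ribosomal protein genes had positive differences in all but 1 of 127 cases, and a minority passed. In the large subunit 12 of 74 measured members rose (16.22%, against 1.69% of all genes) and 0 fell, with a median difference of 0.37, against 0.03 for all genes. In the small subunit 4 of 53 rose (7.55%) and 0 fell, with a median of 0.33. RPL34B read 12.15, 12.07 and 12.11 late and 11.41, 11.48 and 11.67 early (0.60 ± 0.10, adjusted p = 0.0318). RPL31A rose by 0.64 and RPS11A by 0.70, while RPS19A, with 10.64, 10.58 and 10.59 late and 9.90, 10.02 and 10.16 early, rose by 0.58, RPS25A by 0.40 and RPS17B by 0.39. RPL42B rose by 0.54. RPL42B and RPS17B are read by probe sets with shared sequence and are uncertain.

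Of the 127 ribosomal protein genes, only RPL41A had a negative difference (-0.13). Its signal was low and irregular, with 7.83, 7.95 and 7.65 late and 7.75, 7.50 and 8.57 early, and its probe set has shared sequence. It was in none of the 50 paralog pairs with both members measured, so both members of every pair had positive differences. The median gap within a pair was 0.11. Probe sets with shared sequence read 11 of the 74 large subunit and 13 of the 53 small subunit genes. Their part in the small gaps was not tested. RPL2A and RPL2B had the widest gap, with differences of 0.39 and 0.80, neither past the threshold. RPL2A is read by a probe set with shared sequence and is uncertain. Without the 60 h array 72 of the 74 large subunit and 47 of the 53 small subunit genes rose, and 0 fell. In that fit 28.9% of all genes rose and 23.4% fell. In the deposited values, in which the median of all genes was -0.17, the medians of both lists were 0.09.

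Mitochondrial ribosomal protein genes passed about as often as genes at large, but had a negative median. Of 72 measured members 3 fell and 0 rose (4.17%, against 4.92% of all genes), and the median difference was -0.36. YML6, of the large mitochondrial subunit, read 9.55, 9.71 and 9.43 late and 10.39, 10.43 and 10.13 early (-0.75 ± 0.12, adjusted p = 0.0318). The small subunit genes RSM28 and MRPS28 fell by 0.65 and 0.98. Differences were negative in 65 of the 72 members. When the 60 h array was left out 54 fell, against 23.4% of all genes in that fit. The cytosolic and the mitochondrial ribosome lists had medians of opposite sign under each of the 4 scalings run, with -0.66 for the mitochondrial list in the deposited values. With the RNA integrity score as a covariate the medians were 0.02 for the large and 0.01 for the small cytosolic subunit and 0.19 for the mitochondrial list. The opposite signs were not kept, but this fit cannot separate the score from the window.

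Of 33 measured proteasome subunit genes 5 fell, 0 rose and 28 did not pass, with a median difference of -0.38. The share that fell was 15.15%, against 3.23% of all genes. PUP2, a subunit of the core particle, read 11.05, 10.97 and 10.96 late and 12.06, 12.04 and 11.52 early (-0.88 ± 0.15, adjusted p = 0.0336). RPT6, an ATPase of the regulatory particle, fell by 0.56 and the ubiquitin receptor gene RPN13 by 0.58, while SCL1 of the core particle fell by 0.68 and the deubiquitinase gene RPN11 by 0.66. Without the 60 h array 28 of the 33 fell and 0 rose, against 23.4% and 28.9% of all genes in that fit. With the integrity score as a covariate the median was 0.11. RPN4, the transcription factor of proteasome genes, read 11.91, 12.22 and 11.97 late and 12.51, 12.45 and 12.05 early, and its windows overlapped (-0.30 ± 0.14, adjusted p = 0.154). BLM10, an alternative proteasome activator, had a difference of 0.34 that did not pass (adjusted p = 0.0967). Among 15 listed proteasome regulators and assembly factors and 24 listed ubiquitin pathway genes, 0 passed, with medians of 0.01 and -0.10. The ubiquitin pathway genes CDC34, UBP9, SLX8 and UBP2 were in no list and did pass. Their differences were -0.98, -0.83, -0.89 and 0.58.

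**Figure D3:**
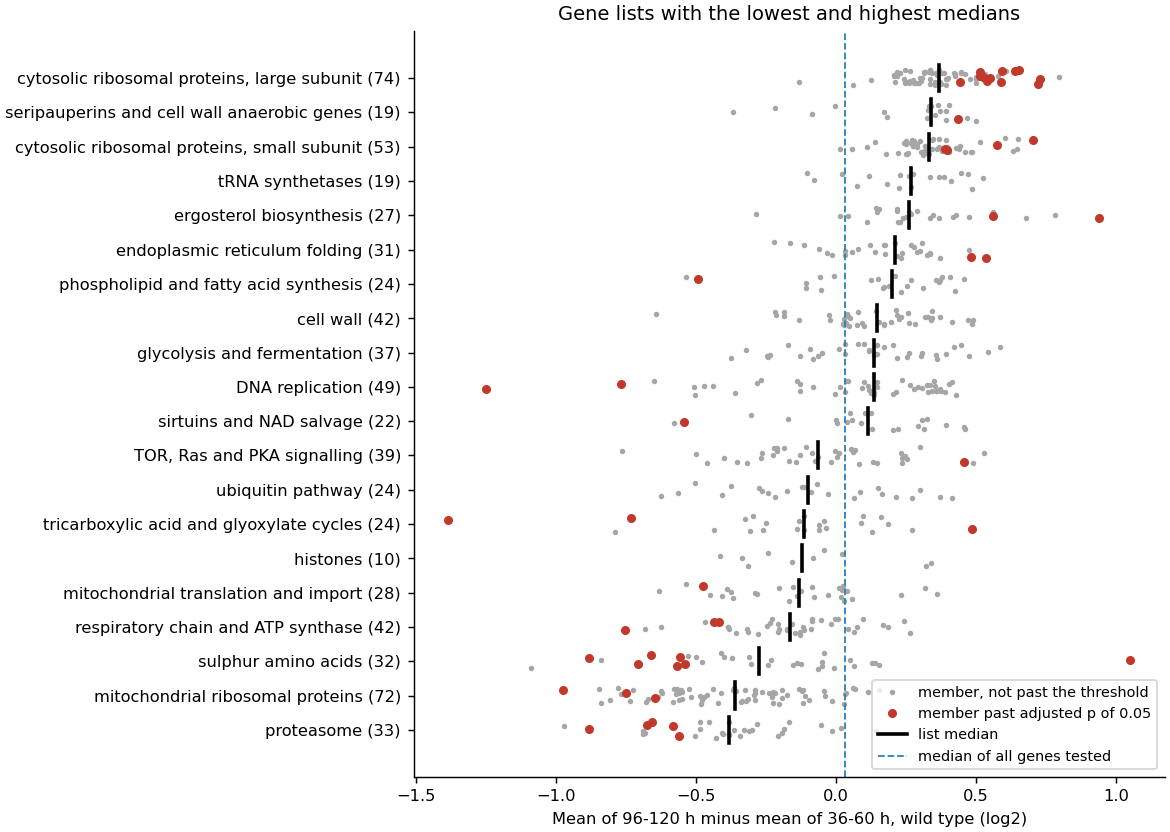
Difference between the mean of 96 to 120 h and the mean of 36 to 60 h in the wild type (log2), for the gene lists with the lowest and the highest medians, with the number of measured members in brackets and 1 point per gene. Red points passed an adjusted p of 0.05, the bar is the list median and the dashed line the median of all genes (0.03), and medians run between -0.38 for the proteasome and 0.37 for the large ribosomal subunit.

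Other genes of protein synthesis were as follows. Of 111 ribosome biogenesis genes 4 rose and 2 fell (5.41%, against 4.92% of all genes), and the median was 0.00. The processome genes NOP14 and UTP14 rose by 0.47 and 0.39, NOP56 of the box C/D snoRNPs by 0.48 and the methyltransferase gene SPB1 by 0.52, while NOP7 fell by 0.76 and the kinase gene RIO1 by 0.42. None of the 36 genes of RNA polymerases I and III passed. Of 37 translation factors HYP2, which encodes eIF5A, rose by 0.50 and the helicase gene DED1 fell by 0.51. The tRNA synthetases had a median of 0.27 with 17 of 19 differences positive, and 0 of 19 passed. Of these DED81 read 11.96, 11.99 and 12.03 late and 11.22, 11.53 and 11.77 early (0.49, adjusted p = 0.0585). Without the 60 h array 14 of the 19 rose, against 28.9% of all genes in that fit. In the deposited values their median was -0.06, against -0.17 for all genes, so the sign of this list depends on the scaling, and with the integrity score as a covariate it was -0.08.

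Ergosterol synthesis genes had a median of 0.26 with 26 of 27 differences positive. ERG5, given above, and ERG11, the lanosterol demethylase, rose (ERG11 by 0.56, with 11.77, 11.99 and 11.93 late and 11.17, 11.29 and 11.55 early), and 0 fell. Of 31 genes of folding and translocation in the endoplasmic reticulum 2 rose and 0 fell (6.45%, against 4.92% of all genes), with a median of 0.21. The translocon gene SSS1 rose by 0.54 and the oligosaccharyltransferase gene OST2 by 0.48. The list of seripauperins and other cell wall genes known from anaerobic growth had a median of 0.34 over 19 genes, of which PAU21 rose by 0.44. PAU21 and 10 others of the 19 are read by probe sets with shared sequence. In the deposited values the medians of the ergosterol and endoplasmic reticulum lists were -0.06 and -0.02, and that of the seripauperin list 0.09. With the integrity score as a covariate the medians were -0.06 for ergosterol synthesis, -0.08 for the endoplasmic reticulum list and -0.22 for the seripauperin list.

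**Figure D4:**
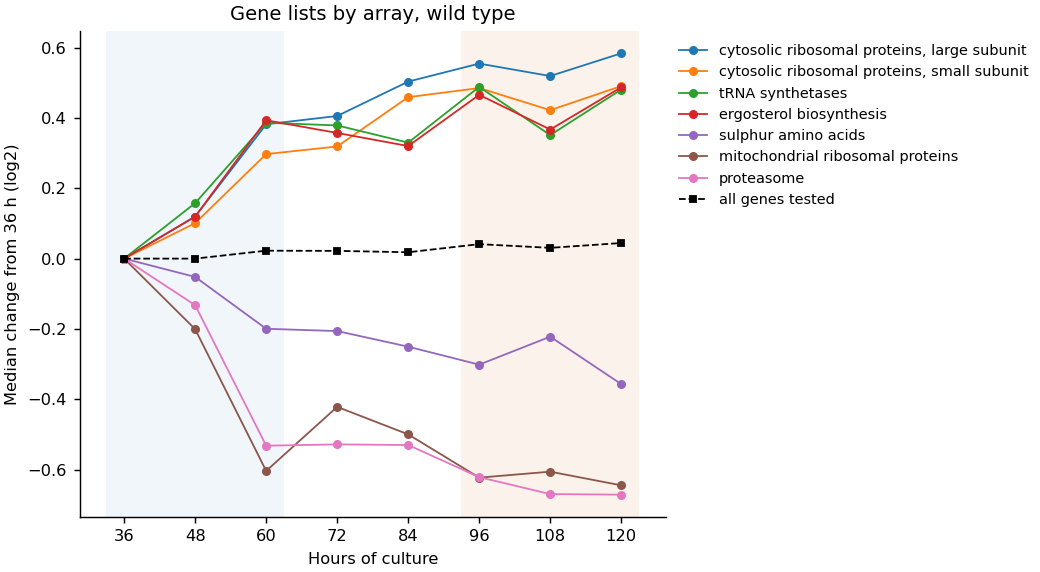
Median change from the 36 h array over the members of 7 gene lists and over all genes, by hours of culture in the wild type (log2, quantile-normalized), with both windows shaded. By 60 h the mitochondrial ribosomal proteins stood at -0.60 and the large cytosolic subunit at 0.38, against -0.64 and 0.58 at 120 h.

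The plot of list medians over time shows when these groups moved. Relative to 36 h the large cytosolic subunit stood at 0.12 (48 h), 0.38 (60 h), 0.50 (84 h) and 0.58 (120 h). The mitochondrial ribosomal proteins stood at -0.20 (48 h), -0.60 (60 h), -0.50 (84 h) and -0.64 (120 h). The proteasome list stood at -0.53 on the 60, 72 and 84 h arrays and at -0.67 at 120 h. The median of all genes stayed within 0.04 of the 36 h array, so most of each list's shift lay between 36 and 60 h, inside the early window.

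Sulphur amino acid genes mostly had negative differences. Of 32 measured members 6 fell and 1 rose, with a median of -0.27, or 0.01 with the integrity score as a covariate. MET32, a transcription factor of the pathway, read 11.15, 11.17 and 11.07 late and 11.65, 11.81 and 11.91 early (-0.66 ± 0.09, adjusted p = 0.0258). It was still at 11.52 at 72 h and reached 11.17 at 84 h, and here the 60 h array was the highest of the early window. The methionine permease gene MUP3 fell by 0.57, STR3 of methionine synthesis by 0.71, the regulators MET28 and CBF1 by 0.88 and 0.56 and the S-adenosylmethionine synthetase gene SAM1 by 0.54. JLP1, the only member to rise, is given above.

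Genes of respiration and of carbon use after glucose mostly fell where they passed, as did the passing genes at large (176 of 268). Of 42 respiratory chain and ATP synthase genes 3 fell and 0 rose (7.14%, against 4.92% of all genes), with a median of -0.16. CYC1 and CYC7, the isoforms of cytochrome c, fell by 0.76 and 0.43 and RIP1, the Rieske protein of complex III, by 0.42. CYC1 read 11.53, 11.45 and 11.22 late and 12.38, 12.25 and 11.83 early. Of 24 genes of the tricarboxylic acid and glyoxylate cycles 12.5% passed. IDP3 and MLS1, the malate synthase, fell (MLS1 by 0.73), and LSC2, a succinyl-CoA ligase subunit, rose by 0.49. In the peroxisome and fatty acid oxidation list 4 of 41 genes fell (9.76%). They were the import and assembly genes PEX22 (by 0.67), PEX13 (by 0.84) and PEX10 (by 0.86) and the catalase gene CTA1 (by 0.62). Of the glycolysis and fermentation genes 0 of 37 passed. ADH2, which oxidises ethanol, had a difference of -0.25 (adjusted p = 0.206). JEN1, the lactate permease, and HXT5, the hexose transporter of slow growth, were at 0.03 and -0.03.

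Classical stress and survival genes divided. Of 32 stress effectors SIP18, GRE1 and the transketolase gene TKL2 (0.71) rose and the phosphatase gene PHM8 fell by 0.53. HSP12, the membrane-stabilising small heat shock protein, read 13.52, 13.56 and 13.58 late and 13.53, 13.55 and 13.55 early, near the top of the signal range in both windows. The catalase gene CTT1 (difference -0.01), the polyubiquitin gene UBI4 (0.08) and the stationary phase gene SNZ1 (-0.07) had overlapping windows too. SSA3, an inducible Hsp70 gene, read 11.17, 11.18 and 11.28 late and 10.59, 10.68 and 11.07 early, but its difference of 0.43 did not pass (adjusted p = 0.0696). Of 30 heat shock and chaperone genes only APJ1 passed, with a fall of 0.59.

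Of 25 stationary phase and quiescence genes 3 fell, all regulators, and SIP18 and GRE1 rose. GIS1, a transcription factor of the post-diauxic shift, read 12.19, 12.12 and 12.02 late and 12.68, 12.63 and 12.54 early (-0.51 ± 0.09, adjusted p = 0.0339). MSN2, a general stress transcription factor, fell by 0.51 and IGO2, which protects mRNA on entry into quiescence, by 0.37. MSN4, the paralog of MSN2, had a difference of -0.47 that did not pass (adjusted p = 0.0563). RIM15, the kinase upstream of these factors, was at 0.08, XBP1, a repressor of the cell cycle, at 0.11 and SCH9 itself at -0.14, each with overlapping windows. Of 39 listed genes of TOR, Ras and protein kinase A signalling only TOR2 passed, with a rise of 0.46. TSC11 and AVO2 of TOR complex 2, which were in no list, also passed, with differences of 0.63 and -0.69.

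Among 36 antioxidant genes 1 rose and 3 fell (11.11%, against 4.92% of all genes). SOD2, the mitochondrial superoxide dismutase, rose by 0.48, with 12.10, 12.14 and 12.27 late and 11.63, 11.56 and 11.86 early. Methionine sulphoxide reductase (MXR1) fell by 0.53, the glutaredoxin gene GRX3 by 0.63 and CTA1 as given above. SOD1, the cytosolic enzyme, had separate windows but a small difference of -0.19 (adjusted p = 0.13). Of 33 autophagy genes 6.06% passed. ATG17, a scaffold of the initiation complex, rose by 0.42 and ATG3, a conjugating enzyme, fell by 0.80. ATG8, whose product coats the autophagosome, was at 0.16 and the vacuolar protease gene PEP4 at -0.08, and neither passed.

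In the nutrient lists 3 of 36 nitrogen genes (8.33%), 2 of 26 phosphate genes (7.69%), 2 of 30 iron genes (6.67%) and 1 of 15 zinc and copper genes (6.67%) passed, against 4.92% of all genes. DAL4, a permease for allantoin, rose by 0.68, whereas the permeases UGA4 and PUT4 fell by 0.69 and 0.44. In the phosphate list PHO81, an inhibitor in phosphate signalling, rose by 0.49 and PHM8, named above, fell by 0.53. The iron genes FIT2 and MRS4 fell by 0.45 and 0.46 and ZAP1, the zinc-responsive activator, by 0.73, with 9.67, 9.64 and 9.60 late and 10.49, 10.33 and 10.28 early. In amino acid synthesis 3 of 63 passed: LYS21 rose by 0.71, and ARG8 and ARO3 fell by 0.61 and 0.39. GCN4, the activator of these genes, had a difference of -0.10. In phospholipid synthesis ECT1 fell by 0.49 and INO1 was at 0.17.

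Genes of the nucleus followed no single direction. The excision repair genes RAD14 and RAD4 fell by 0.58 and 0.73 and RAD54 of recombination by 0.75. These were 3 of 44 repair genes (6.82%, against 4.92% of all genes passing), and none rose. Of 49 replication genes DPB4 and MCM1 fell, MCM1, a transcription factor, by 0.77, while the list median was 0.13. SIR1 of silencing fell by 0.54 and SIR2, the sirtuin, had a difference of 0.31 that did not pass (adjusted p = 0.249). None of 10 histone genes and 0 of 28 cyclins and cell cycle regulators passed. RME1, a repressor of meiosis, fell by 0.60 and the meiotic genes IME2 and IME4 by 0.67 and 0.57, while SPO19 rose by 0.55.

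Gene length, taken as the span of the annotated gene with any introns, was weakly related to the difference over all genes. With the genes in 4 length classes of nearly equal size, the median difference was -0.01 in both shorter classes, 0.03 in the third and 0.13 in the longest, and Spearman's rho of the difference with length was 0.148 across 5449 genes, which are not independent replicates and share the same arrays. From the shortest class to the longest, 30, 18, 10 and 34 of the 92 higher genes and 46, 50, 47 and 33 of the 176 lower genes fell into each. The median length was 1116 bases for the higher genes and 1120.5 for the lower genes, against 1236 for all genes. The median length of the cytosolic ribosomal protein genes was 805 bases for the large and 768 bases for the small subunit, and that of the mitochondrial ribosomal protein genes was 715.5 bases. The spliced transcript of a gene with introns is shorter than its span, and transcript lengths were not compared between these lists.

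The sch9 mutant was measured at 96 and 108 h and at 36, 48 and 60 h, and the late minus early difference was set against that of the wild type at the same 5 times. SCH9 itself, the gene named as deleted, read 10.58 and 10.48 late and 10.07, 10.32 and 10.36 early in the mutant, and 10.92 and 10.92 late and 11.26, 11.13 and 10.88 early in the wild type, so its probe set still gave signal in the mutant. The difference between the strains passed for 80 genes (1.47%), with the mutant's change above that of the wild type in 38 (0.697%) and below it in 42 (0.771%). With the shared times as blocks 21 genes passed, 15 above and 6 below, 17 of them among the 80. In 72 of the 80 the changes had opposite signs. The 80 were chosen for a gap between the changes, which favours opposite signs, and the share over all genes was not counted. An opposite sign need not be a reversal, as some mutant changes were small (-0.03 for SIP18). Over all genes the median absolute change was 0.14 in the mutant and 0.20 in the wild type. Of the 92 genes that rose in the wild type 44 had a positive change in the mutant, with a median of -0.02 in the mutant and 0.52 in the wild type at matched times. For the 176 that fell, 101 had a negative change in the mutant, with medians of -0.04 in the mutant and -0.62 in the wild type. The difference itself passed for 14 of the 92 and 22 of the 176. The 92 and 176 genes were chosen on the wild-type arrays, and the matched wild-type change uses the same arrays without 120 h. A larger change in the wild type was therefore built in for these genes, and the counts of 14 and 22 share that limit. Without the wild-type 60 h array 1382 genes passed, and without the wild-type 96 h array 2. Leaving out the wild-type 48 h or 108 h array left 9 or 5 genes, the mutant 108 h array 7, and the mutant 36, 48 or 96 h array 25, 23 or 29.

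SIP18 differed most among the genes whose rise was greater in the wild type. In the mutant it read 13.76 and 13.82 late and 13.82, 13.83 and 13.79 early, so that every value was above those of the wild type at the same times (difference between the strains -2.07 ± 0.19, adjusted p = 0.00193). GRE1 was likewise at 13.96 and 13.96 late and 13.96, 13.90 and 13.96 early in the mutant. Both genes were near the top of the signal range in the mutant. The deposited columns of the strains differed in their lowest values, as given under the processing, which limits any comparison of levels between strains. NCA3 also stood between 13.23 and 13.47 at these times in the mutant, while YDR524W-C stayed low in the mutant, between 7.49 and 7.75.

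JID1 went the other way, with 10.51 and 10.59 late and 10.03, 10.28 and 10.29 early in the mutant, against the fall in the wild type given above (1.63 ± 0.22, adjusted p = 0.00998). CYC1 read 11.67 and 11.78 late and 10.60, 10.91 and 11.08 early in the mutant and fell in the wild type (1.53 ± 0.24). MSN2 too had a change of 0.32 in the mutant and -0.48 in the wild type at the matched times. For lists, the medians at matched times were 0.04 in the mutant and -0.36 in the wild type for mitochondrial ribosomal proteins. They were -0.28 in the mutant and -0.38 in the wild type for the proteasome, and 0.12 in the mutant and 0.36 in the wild type for the large cytosolic subunit. No member of these 3 lists passed the test of the difference between strains, and in the small cytosolic subunit 2 of 53 passed, RPS19A (-0.79, adjusted p = 0.0355) and RPS22B (1.43, adjusted p = 0.0282). The 3' probe set of 18S and the integrity score moved with time in the wild type and much less in the mutant. Their part in these strain differences was not tested.

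**Figure D5:**
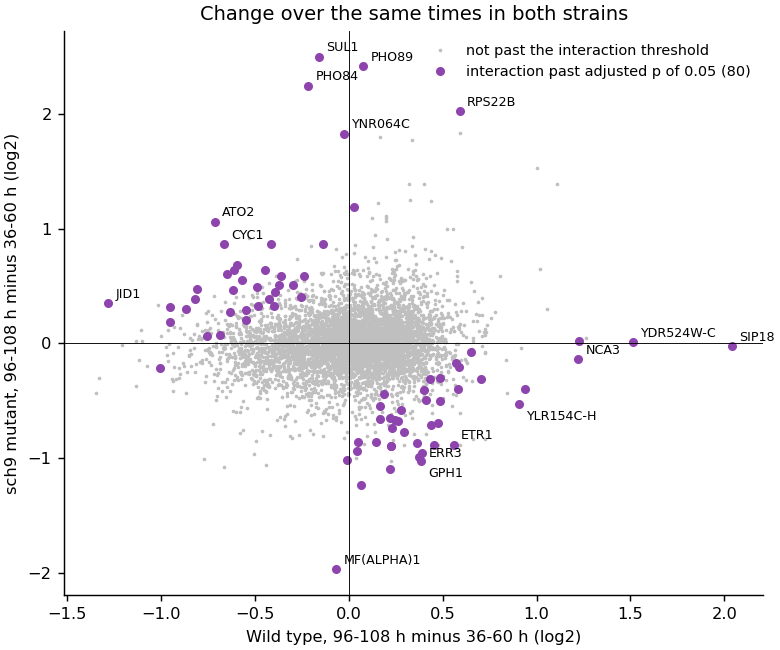
Change of each gene at 96 and 108 h relative to 36 to 60 h, in the sch9 mutant (vertical) and the wild type (horizontal), in log2, with the 80 genes whose change differed between the strains in purple. SIP18 lies at 2.04 in the wild type and -0.03 in the mutant, and JID1 at -1.28 in the wild type and 0.35 in the mutant.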

How the data were processed

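Per the labels, each RNA sample was read on 1 Affymetrix GeneChip Yeast 2.0 array. The deposited values are log2 probe set summaries, and the authors' summarization and normalization were not stated in the sources used here. Of 5814 probe sets 5498 named 1 gene, all matched to the R64 annotation, giving 5449 genes with the probe set of highest mean kept. The deposited column medians of the 19 arrays spanned 0.609, and the genes were quantile-normalized over all 19 columns. Log2 signal compares arrays for 1 gene, not genes with each other. limma 3.58.1 in R 4.3.3 compared the windows (4 residual degrees of freedom) and tested the strain difference on 10 arrays (6 residual degrees of freedom), at a Benjamini-Hochberg adjusted p under 0.05. Data were simulated for 5449 genes with independent normal noise and the same SD of a gene on every array. In these limma recovered 56% of planted window differences of 0.5 and 100% of those of 1, with 12 other calls. For the strain difference it recovered 15% and 85%, with 5 other calls. The simulation held neither the larger early spread nor a shift of a whole array, so these rates need not hold for the real arrays. The sample groups, gene lists and naming rule were chosen with earlier results of these data known. Named were the 15 largest differences in each direction, up to 3 passing members of a list in each direction (or the 2 with the smallest p), listed regulators, and the 8 largest strain differences in each direction. Further members of lists with few passing genes, PET127, VNX1, RPL2A, RPL2B and RPL41A were named after their values were seen. So were TSC11, AVO2, CDC34, UBP9, SLX8 and UBP2, which were in no list. Alternatives were other scalings, fits, windows, filters and thresholds, and leaving out each array.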

Additional observations from a re-analysis of the deposited data

Results flagged for a closer look

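A difference between the strains in the late minus early change passed limma's interaction test for 80 genes, and the 8 largest in each direction are given here as mutant minus wild type, on the log2 scale. Where the mutant's change lay above that of the wild type, nutrient permeases led. The sulphate permease gene SUL1 differed by 2.66 and the phosphate permease genes PHO84 and PHO89 by 2.46 and 2.34. SUL1 read 9.91 and 10.57 at 96 and 108 h and 7.43, 7.70 and 8.10 at 36, 48 and 60 h in the mutant, while its wild-type signal lay between 7.73 and 8.27 at these times. PHO84 read 9.50 and 10.59 late and 7.45, 7.91 and 8.02 early in the mutant, and between 7.07 and 7.43 in the wild type. In the wild type the late and early values of SUL1 overlapped, and both late values of PHO84 lay below its early ones. YNR064C, an epoxide hydrolase gene, differed by 1.85, ATO2 of ammonium and acetate transport by 1.77, JID1 by 1.63, CYC1 by 1.53 and RPS22B by 1.43.

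Where the mutant's change lay below, SIP18 differed by -2.07, YDR524W-C by -1.51 and NCA3 by -1.36. The alpha factor gene MF(ALPHA)1 differed by -1.90, with 9.34 and 9.10 late and 11.77, 11.19 and 10.61 early in the mutant and values between 11.80 and 12.10 in the wild type. ETR1, a reductase of mitochondrial fatty acid synthesis, differed by -1.44, YLR154C-H by -1.43, the glycogen phosphorylase gene GPH1 by -1.41 and the enolase-related gene ERR3 by -1.37. YLR154C-H and ERR3 are read by probe sets with shared sequence and are uncertain. With the shared times as blocks 9 of these 16 genes passed, and the other 7 (CYC1, RPS22B, MF(ALPHA)1, YLR154C-H, GPH1, ERR3 and NCA3) had adjusted p between 0.0503 and 0.0650 in limma. Without the wild-type 96 h array 14 of these 16 genes no longer passed, and without the 108 h array 13.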

How the results depend on the processing

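Against 268 genes between the windows, the deposited values gave 41 (4 higher, 37 lower), median centring 416 (127 higher, 289 lower), cyclic loess 260, an intensity trend with a robust prior 620, a spread shared over all 10 wild-type arrays 1135, one shared over all 19 arrays 1670, and a slope over 36 to 120 h 2298. Array weights, whose estimation stopped before convergence, gave 4185. Windows of 36-72 h against 84-120 h gave 35, and 48-60 h against 96-108 h gave 0, with 725 at an unadjusted limma p under 0.05. The integrity score as a covariate gave 0 (59 unadjusted), an adjusted p under 0.01 gave 1 and a 2-fold minimum 22. Leaving out 1 array gave between 0 and 2848 genes. Higher genes made up 34.3% of calls, 9.8% in the deposited values. All 268 kept their direction under the 3 other scalings, and 31 passed under each of them.

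With that covariate 8 named genes changed sign, to -0.0982 for YLR154C-H, -0.101 for SMC2, -0.0206 for THI4, 0.0463 for HIT1, 0.0432 for SLF1, 0.0119 for CYC1, 0.0146 for ATG3 and 0.0164 for MCM1. It moved the median of 32 of the 46 lists by more than the spread between arrays. The score did not overlap between the windows, so this fit cannot separate the score from the window, and the cause was not tested.

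Against 80 genes for the strain difference, late windows of 96-120 h in the wild type and 84-108 h in the mutant gave 989, 96-120 h and 96-108 h gave 545, and times as blocks 21. The deposited values gave 86 (72 with the mutant above, 14 below) and median centring 99 (66 above, 33 below). Leaving out 1 array gave between 2 and 1382. Replicate numbers within a window only order its times, so no arrays were paired between the wild-type windows. Only the strains could be matched, by time, as in the fit with times as blocks.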
